A study of Mus musculus with 4 samples.

Results

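Tight junctions seal the cleft between neighbouring endothelial cells, and 9 genes that build them were followed in brain endothelial cells of newborn Pd1fl/fl mice (controls) and Pd1cKO-Tie2 mice (knockout), in which Pd1 (Pdcd1), the gene of the immune checkpoint receptor PD-1, is targeted. The 9 genes, Cldn5, Ocln, Tjp1, Jam2, F11r, Esam, Marveld2, Lsr and Cgnl1, were found by symbol among the 21578 genes of the deposited count tables, and all 9 were listed in each of the 4 tables. RNA came from C57BL/6 mice at postnatal day 0. Both genotypes carried floxed Pd1 alleles, and Pd1cKO-Tie2 mice also carried Cre under the Tie2 promoter, which is active in endothelial cells and also in blood and immune lineages. Endothelial cells had been purified from brain by flow cytometry with antibodies to CD31 and to the leukocyte antigen CD45, and 2 libraries per genotype were sequenced on an Illumina HiSeq instrument. The number of animals behind each library is not given in the sources used here, so p-values measure only the spread between these libraries, which may be technical.

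In brain capillaries tight junctions are unusually continuous and are a main component of the blood-brain barrier. Claudins polymerise into the strands that close the paracellular cleft, and CLAUDIN5 is the main claudin of brain endothelium. OCCLUDIN and tricellulin are MARVEL-domain proteins of the strands, immunoglobulin-like adhesion molecules line the same contacts, and plaque proteins such as ZO-1 tie the complex to actin.

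The sequences just upstream of 4 of these genes are shown because Cldn5 was the most abundant of the 9, Ocln and Lsr had the most similar profiles over the 4 libraries, and the profile of Tjp1 differed from that of Cldn5 more than most. RefSeq (GRCm38.p6) windows were held for 7 of the 9 genes, with 9 windows in all, since Ocln and Marveld2 had 2 each. No entry was matched for Jam2 and Esam. Each line gives 250 bases 5′ of an annotated start on the strand of the gene, at chr16:18776597-18776846 (plus) for Cldn5, chr13:100552719-100552968 (minus) for Ocln, chr7:30973470-30973719 (minus) for Lsr and chr7:65371245-65371494 (minus) for Tjp1, the last being a start inside the long Tjp1 locus. Capitals mark letter strings searched on both strands.
Cldn5: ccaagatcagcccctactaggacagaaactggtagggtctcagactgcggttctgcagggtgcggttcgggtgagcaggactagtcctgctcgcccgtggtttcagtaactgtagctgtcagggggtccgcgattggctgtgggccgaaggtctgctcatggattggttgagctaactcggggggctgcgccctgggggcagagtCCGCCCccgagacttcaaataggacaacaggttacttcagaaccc
Ocln: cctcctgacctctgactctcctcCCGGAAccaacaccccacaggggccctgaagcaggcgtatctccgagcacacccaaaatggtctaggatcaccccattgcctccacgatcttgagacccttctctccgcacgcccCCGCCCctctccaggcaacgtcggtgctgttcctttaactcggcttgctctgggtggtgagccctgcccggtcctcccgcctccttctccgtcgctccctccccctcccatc
Lsr: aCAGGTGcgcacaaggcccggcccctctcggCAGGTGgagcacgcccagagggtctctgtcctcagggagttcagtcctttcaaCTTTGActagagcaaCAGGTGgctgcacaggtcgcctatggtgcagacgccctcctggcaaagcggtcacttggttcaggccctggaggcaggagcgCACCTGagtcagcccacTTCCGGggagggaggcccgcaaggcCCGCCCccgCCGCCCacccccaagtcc
Tjp1: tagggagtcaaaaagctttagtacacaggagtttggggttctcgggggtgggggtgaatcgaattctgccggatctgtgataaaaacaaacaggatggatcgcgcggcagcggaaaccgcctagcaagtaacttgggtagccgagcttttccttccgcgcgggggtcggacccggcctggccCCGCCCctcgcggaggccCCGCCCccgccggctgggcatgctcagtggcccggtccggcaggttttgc

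The strings searched were the GC box GGGCGG, the ETS core CCGGAA, the forkhead string GTAAACA, the TCF/LEF core CTTTGA, the Snail E-box CAGGTG and the TATA string TATAAA. The GC box was present in all 9 windows, against 32.7% of 32851 windows of the same length upstream of mouse genes. Both Marveld2 windows share the same GC box, so the 9 windows are not independent. The E-box was found in 3 of the 9 windows (F11r, Lsr and the Ocln window not shown) against 17.2% of all. In the Lsr window lie 4 of its copies. An ETS core was found in 2 windows (Lsr and the Ocln window shown, not the other Ocln window, which overlaps it) against 12% of all. A TATA string was found in 2 (both of Marveld2, which overlap) against 12.4%. The TCF/LEF core was found in 1 (Lsr) against 13.8%, and the forkhead string in 0 against 3.17%. The median GC content of all windows was 52.4%, and the windows shown hold 59.6% (Cldn5), 64% (Ocln), 66.8% (Lsr) and 63.2% (Tjp1). A match describes the letters of the window only.

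The 4 libraries held 13714374 to 24146115 counts on genes, and Pd1cKO-Tie2 replicate 1 was the deepest. Counts of Pdcd1 were 32 and 0 in the Pd1fl/fl libraries and 0 and 0 in the Pd1cKO-Tie2 libraries, too few to test, so the deletion could not be checked at this depth. Pecam1, which encodes the CD31 used for the sort, was read at 409.8 to 576.1 CPM (counts scaled to the size of the library) in the 4 libraries, and none of 12 pan-endothelial genes was at 0 in any library. Transcripts of other cells were present too. Summed levels are given with the results for microglia and macrophages, radial glia and astrocytes, pericytes and smooth muscle, neurons, and neutrophils. For 6 erythroid genes the sums were 643.6 and 548 CPM in Pd1fl/fl and 573 and 1063 CPM in Pd1cKO-Tie2 libraries. Levels here are CPM after TMM scaling, a library size correction that assumes most genes are stable, and the call rule was that of the study, a change of 2-fold or more whose unadjusted p does not exceed 0.05.

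Cldn5 led the group by a wide margin at the level of CPM per kb of exon, the scale on which different genes can be compared. Its level was 3896 and 3372 CPM per kb in Pd1fl/fl and 4634 and 4949 CPM per kb in Pd1cKO-Tie2 libraries, which put its mean at rank 6 of the 15909 genes tested. Cldn5 made up 82.2% to 84.6% of the summed level per kb of the 9 genes in each library.

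Esam, an immunoglobulin-like adhesion molecule of endothelial cells and platelets, followed with a mean of 416.8 CPM per kb over the 4 libraries, 10.1 times lower than Cldn5, and its range did not meet that of its neighbours. Ocln (117.7) and F11r (106.6) came next, and their ranges overlapped although Ocln was the higher in all 4 libraries. Tjp1 (50.01), Lsr (49.54) and Jam2 (47.37 CPM per kb) could not be ordered, since Tjp1 exceeded Lsr in 2 of 4 libraries and Lsr exceeded Jam2 in 2 of 4. Cgnl1 (23.47) and Marveld2 (8.072 CPM per kb) stood below them without overlap. The ladder from Cldn5 to Marveld2 was thus the same at its top and bottom in both genotypes.

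**Figure D1:**
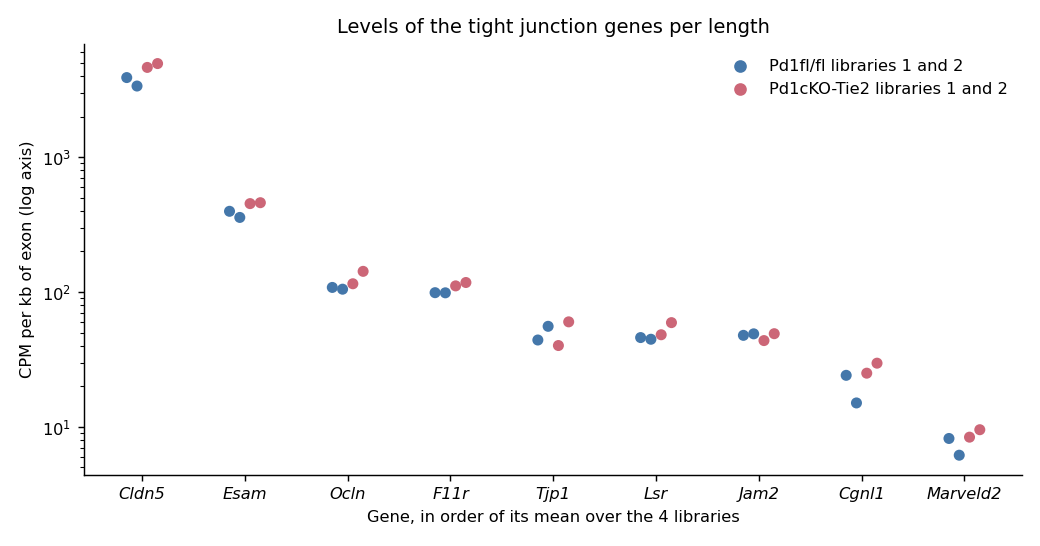
Level of each of the 9 genes in CPM per kb of exon (log axis), with 1 point per library and genes in order of their mean over the 4 libraries. Cldn5 lies between 3372 and 4949 CPM per kb, above every other gene, while Tjp1, Lsr and Jam2 share a range of 40.12 to 60.11.

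Comparison of the genotypes asked whether loss of endothelial Pd1 came with a change in junction transcripts. None of the 9 genes met the criterion (0 of 9), against 4.02% of all tested genes, and 0 had an adjusted p under 0.05 with edgeR, as did 0 (0%) of the 15909 genes. The fitted change was above 0 in 8 of 9 genes, with a median log2 fold change of 0.27 and a range of -0.06 to 0.48, where the median of all tested genes was 0.00 (-0.004) and that of the 7355 genes of at least 20 CPM was 0.04. In 7 of the 9 genes each knockout library exceeded each control library, and in 0 each was lower, against 17.7% above and 18.1% below among all tested genes, and 21.7% above and 15.8% below among genes of at least 20 CPM. The 95% interval of the change lay within a 2-fold change in either direction for 7 of 9 genes, and it included 0 for 8. Over 2 libraries a genotype, fewer cells of a type and less RNA per cell cannot be told apart, and an exact permutation test of a single gene cannot go below a two-sided p of 0.33.

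Cldn5 (chromosome 16, 18776847 to 18778260, a gene of 1 exon) encodes the strand-forming claudin of the barrier. It was read at 5516 and 4774 CPM in Pd1fl/fl replicates 1 and 2 and at 6562 and 7008 CPM in Pd1cKO-Tie2 replicates 1 and 2. Both knockout libraries were the higher, and the genotypes did not overlap. The mean was 5145 ± 524.9 CPM (SD, n = 2) in Pd1fl/fl and 6785 ± 315.2 CPM (SD, n = 2) in Pd1cKO-Tie2 cells. Its log2 fold change was 0.40 with a standard error of 0.10 (95% interval 0.15 to 0.65), 1.319-fold, and the adjusted p of edgeR's quasi-likelihood test with Benjamini-Hochberg adjustment was 0.7348. Cldn5 had the only interval that left out 0, and by unadjusted p it was rank 141 of 15909.

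The MARVEL-domain genes and their tricellular partner differed less relative to their spread. Ocln (chromosome 13, 100496507 to 100552718), which encodes OCCLUDIN, was read at 456.7 and 443.5 CPM in Pd1fl/fl and 486.5 and 601.2 CPM in Pd1cKO-Tie2 libraries. The genotypes did not overlap, yet the knockout libraries differed from each other (0.31 on the log2 scale) by more than the genotype means did (0.27). The log2 fold change of Ocln was 0.27 with a standard error of 0.15 (95% interval -0.11 to 0.65; edgeR adjusted p = 0.9157). It was 0.12 without Pd1cKO-Tie2 replicate 2 and 0.43 without Pd1cKO-Tie2 replicate 1.

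Marveld2 encodes tricellulin, which seals the corners at which several cells meet, and lies beside Ocln on chromosome 13 (100595957 to 100616971). Its levels were the lowest of the 9, at 27.75 and 20.85 CPM in Pd1fl/fl and 28.38 and 32.23 CPM in Pd1cKO-Tie2 libraries. The lower knockout library was barely above the higher control. Its log2 fold change of 0.32 had a standard error of 0.32 (95% interval -0.47 to 1.10; edgeR adjusted p = 0.9998). Leaving out Pd1fl/fl replicate 1 gave 0.54 and leaving out Pd1fl/fl replicate 2 gave 0.13.

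Lsr (chromosome 7, 30957770 to 30973464) encodes angulin-1, the membrane protein that brings tricellulin to these corners. It was read at 99.82 and 97.00 CPM in Pd1fl/fl and 104.8 and 128.8 CPM in Pd1cKO-Tie2 libraries. All of the knockout values were above the controls, and Pd1cKO-Tie2 replicate 2 was the highest, as for Ocln. The log2 fold change was 0.25 with a standard error of 0.20 (95% interval -0.25 to 0.74; edgeR adjusted p = 0.986), with 0.10 when Pd1cKO-Tie2 replicate 2 was left out and 0.40 when Pd1cKO-Tie2 replicate 1 was. Lsr counts are uncertain, since 946 bases (43.6%) of its exons overlap the antisense gene Gm4673, which held 23, 101, 89 and 104 counts, and the use of strand is not given in the sources used here.

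The immunoglobulin-like adhesion molecules split. Esam (chromosome 9, 37528078 to 37538319) was read at 1139 and 1025 CPM in Pd1fl/fl and 1298 and 1318 CPM in Pd1cKO-Tie2 libraries. F11r (chromosome 1, 171437535 to 171464603), which encodes JAM-A, was read at 263.5 and 262.8 CPM in Pd1fl/fl and 296.0 and 313.4 CPM in Pd1cKO-Tie2 libraries. For both genes the knockout libraries were the higher and the difference between genotypes exceeded the difference within either of them, as it did for Cldn5 and for no other of the 9.

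For Esam the log2 fold change was 0.27 with a standard error of 0.11 (95% interval -0.01 to 0.56; edgeR adjusted p = 0.8021). F11r changed by 0.21 on the log2 scale with a standard error of 0.14 (95% interval -0.13 to 0.56; edgeR adjusted p = 0.9495). Jam2 (chromosome 16, 84774123 to 84825928), which encodes JAM-B, a junction molecule of endothelial cells, was read at 288.6 and 296.1 CPM in Pd1fl/fl and 263.9 and 296.9 CPM in Pd1cKO-Tie2 libraries. The Jam2 values of the genotypes overlapped. Its log2 fold change was -0.06, the only negative value of the 9, with a standard error of 0.15 (95% interval -0.42 to 0.30; edgeR adjusted p = 0.9998).

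The plaque genes were the most variable between libraries of a genotype. Tjp1 (chromosome 7, 65296165 to 65527781) encodes ZO-1, the scaffold under the strands, and was read at 344.4 and 435.1 CPM in Pd1fl/fl and 313.4 and 469.5 CPM in Pd1cKO-Tie2 libraries. Its lowest and its highest value both came from knockout libraries, which were 0.58 apart on the log2 scale. The log2 fold change of Tjp1 was 0.01 with a standard error of 0.24 (95% interval -0.58 to 0.59; edgeR adjusted p = 0.9998).

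Cgnl1 (chromosome 9, 71626509 to 71771602) encodes paracingulin, a plaque protein that regulates small GTPases at junctions. It was read at 189.2 and 118.1 CPM in Pd1fl/fl and 196.2 and 232.8 CPM in Pd1cKO-Tie2 libraries. Here the controls were far apart, and Pd1fl/fl replicate 2 was the low one. Cgnl1 had the largest fitted change of the 9, 0.48 on the log2 scale with a standard error of 0.26 (95% interval -0.17 to 1.13; edgeR adjusted p = 0.9092). Without Pd1fl/fl replicate 2 the value was 0.18, and without Pd1fl/fl replicate 1 it was 0.86.

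**Figure D2:**
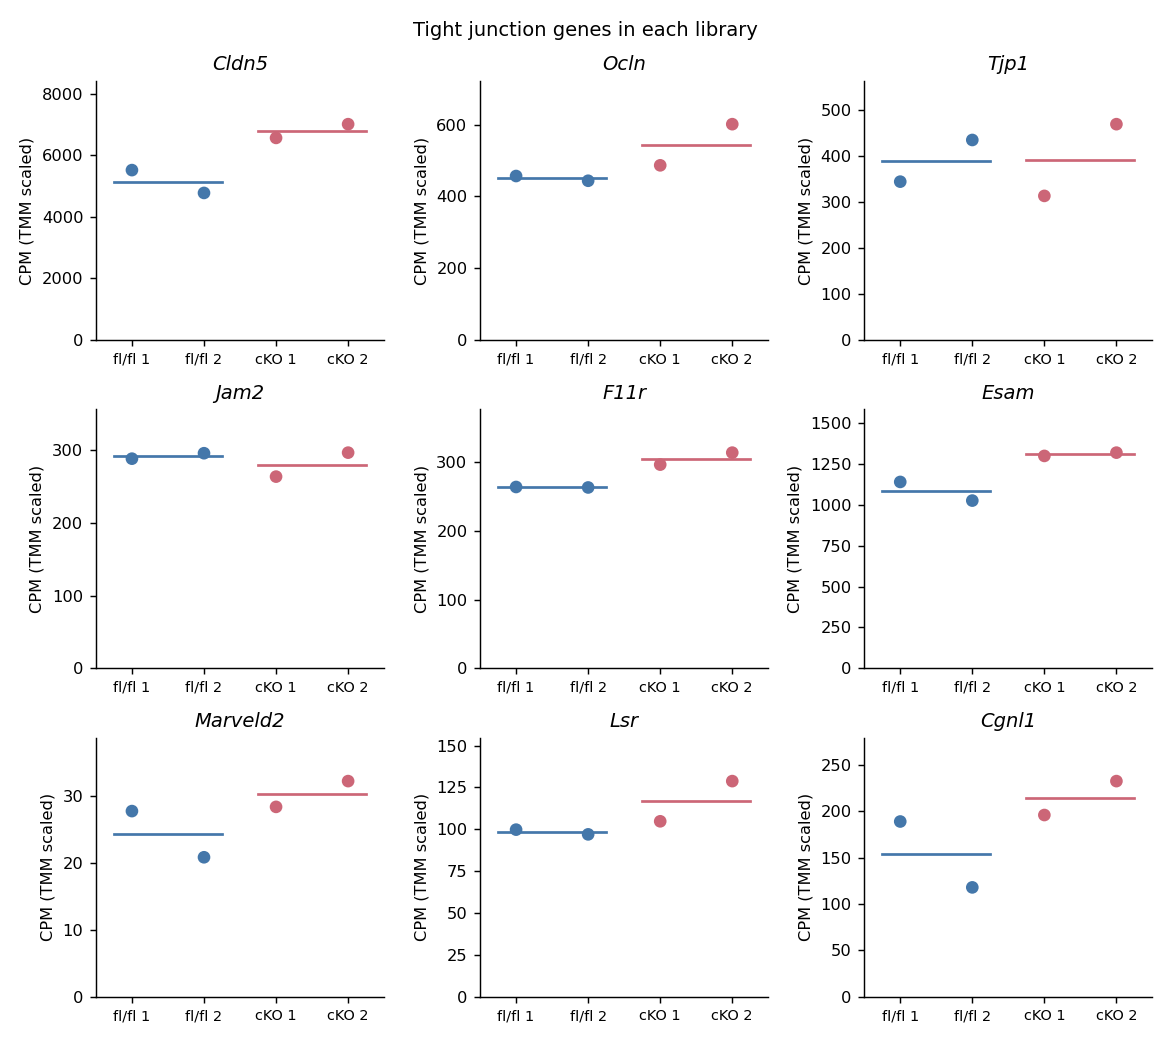
Level of each of the 9 genes in each library in TMM-scaled CPM (axes from 0), with 1 point per library, Pd1fl/fl (fl/fl) in blue, Pd1cKO-Tie2 (cKO) in red and a line at the mean of each genotype (n = 2). Cldn5 and Esam show pairs at separate heights, whereas the Tjp1 values of the genotypes overlap, from 313.4 to 469.5 CPM in knockout libraries.

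The junction genes did not stand alone among endothelial transcripts. Each of the 12 pan-endothelial genes used as a reference (Pecam1, Cdh5, Kdr, Flt1, Tek, Tie1, Erg, Egfl7, Emcn, Eng, Robo4 and Cd34) was above both control libraries in both knockout libraries, with log2 fold changes of 0.21 to 0.67 and a median of 0.34. The share above was 17.7% among all tested genes and 21.7% among those of at least 20 CPM. The summed level of the 12 genes was 7639 and 7285 CPM in Pd1fl/fl and 8857 and 9577 CPM in Pd1cKO-Tie2 libraries. The summed level of the 9 junction genes, which Cldn5 dominates, was 8325 and 7473 CPM in Pd1fl/fl and 9549 and 10401 CPM in Pd1cKO-Tie2 libraries.

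Transcripts of some other cells had lower levels in knockout libraries. The summed level of 10 microglia and macrophage genes was 2088 and 2554 CPM in Pd1fl/fl and 785.6 and 1771 CPM in Pd1cKO-Tie2 libraries, with fitted changes below 0 for 10 of 10 and a median log2 fold change of -0.86. None of the 10 was at 0 in any library, and 7 of the 10 were lower in both knockout libraries than in both controls. For 9 radial glia and astrocyte genes the sums were 1111 and 1073 CPM against 812.6 and 690.3 CPM. None of these was at 0, and 5 of the 9 were lower in both knockout libraries. The share lower in both was 18.1% among all tested genes and 15.8% among those of at least 20 CPM. The summed level of 8 pericyte and smooth muscle genes was 5504 and 3556 CPM against 3647 and 3668 CPM, and that of 9 neuron genes was 977.2 and 1338 CPM against 1161 and 998.8 CPM. The 7 neutrophil genes summed to 908.1 CPM in Pd1fl/fl replicate 1 and to 1.172 to 55.37 CPM in the other libraries. The part of these differences in the changes of the junction genes was not tested.

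When the libraries were instead scaled so that the 12 endothelial genes had the same geometric mean in each, the direction of most junction genes turned. This scaling shifted the median of all tested genes to -0.363 on the log2 scale. The fitted change was then above 0 in 2 of the 9 genes and below 0 in 7. Of all 15909 tested genes, 12351 were below 0. The median of the 9 was -0.09, which lies above the median of all genes. Knockout libraries were on one side of both controls in 4 of the 9 genes (1 above, 3 below), against 5.82% above and 40.3% below among all tested genes.

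Measured against the endothelial genes in this way, Cldn5 changed by 0.04 on the log2 scale (95% interval -0.12 to 0.21). Its log2 ratio to the mean of the reference genes was 3.535 and 3.462 in the controls against 3.548 and 3.538 in the knockout libraries, the narrowest band of the 9. Cgnl1 was the other gene above 0, at 0.13 (95% interval -0.43 to 0.70).

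Jam2 had the lowest value against the reference, a log2 fold change of -0.42 (95% interval -0.780 to -0.065; edgeR adjusted p = 0.4079). Its log2 ratio to the mean of the reference genes was -0.72 and -0.55 in the controls against -1.09 and -1.02 in the knockout libraries, without overlap. Tjp1 followed at -0.37 (95% interval -0.97 to 0.22), with overlapping libraries. The other 5 genes lay between -0.15 (F11r) and -0.03 (Marveld2), and all of their intervals included 0. Jam2 and Tjp1 were thus near the median of all tested genes under this scaling, -0.363. Among all tested genes, 40.3% were lower in both knockout libraries than in both controls, as Jam2 was.

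**Figure D3:**
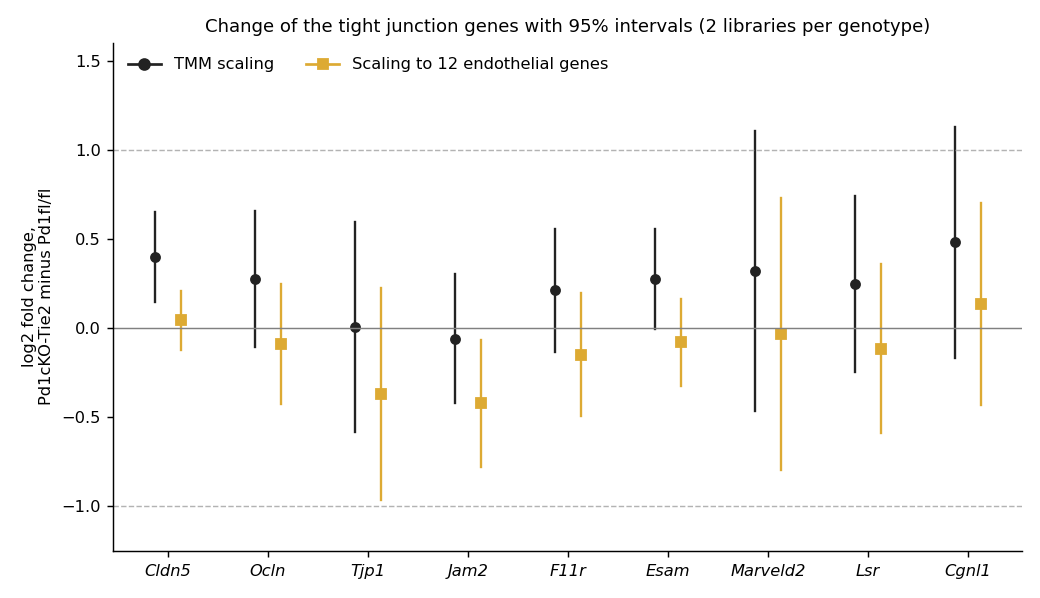
Fitted log2 fold change of each of the 9 genes (Pd1cKO-Tie2 minus Pd1fl/fl) with its 95% interval, under TMM scaling (black circles) and with libraries scaled to 12 endothelial genes (yellow squares). Dashed lines mark a 2-fold change. Cldn5 moves from 0.40 to 0.04 and Jam2 from -0.06 to -0.42 between the scalings.

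Other genes of the junction were examined as 54 further symbols (20 claudins, 10 membrane proteins and 24 plaque proteins), of which 42 were listed and 35 could be tested. Among these 35, 1 gene fell and 0 rose by the criterion, near the 4.02% called over all genes, and both knockout libraries were above the controls in 10 (17.7% of all tested genes) and below them in 3 (18.1%). Their median log2 fold change was 0.15, also with Cldn15 at its bound.

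The other claudins were scarce. Cldn15, a pore-forming claudin best known from intestine, held 43 and 58 counts in the Pd1fl/fl libraries and 0 and 0 in the Pd1cKO-Tie2 libraries. It was the 1 called gene (edgeR adjusted p = 0.7348), and it entered the test through its Pd1fl/fl counts alone. Its level was at least 20.5-fold lower when each knockout library is given the 3 counts that a count of 0 allows. That bound covers counting error only, and a 0 could stand beside a far higher count within a genotype. The Pd1cKO-Tie2 libraries held 87 and 0 counts of Pard6b and 0 and 35 of Cldn9. Cldn12 was read at 18.87 and 22.61 CPM in Pd1fl/fl and 8.245 and 12.89 CPM in Pd1cKO-Tie2 libraries, and it was chosen after its values were seen. Its log2 fold change was -0.98 with a standard error of 0.42 (edgeR adjusted p = 0.8198). It missed both parts of the criterion, being short of 2-fold with an unadjusted edgeR p of 0.06251. But limma-voom called it with -1.07, and so did library size scaling (-1.04) and scaling to the endothelial genes (-1.35). With library size scaling its unadjusted edgeR p was 0.04975, at the edge of the criterion. DESeq2 did not call Cldn12, nor did edgeR with the other filters. Of 6 claudins tested beside Cldn5, 1 had a fitted change above 0, and the highest mean level among them was 3.838 CPM per kb (Cldn1). Cldn3, a claudin long discussed at the blood-brain barrier, held 0, 1, 14 and 8 counts and was not tested.

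By the level rule, the 10 most abundant other junction genes had mean levels of 7.626 to 33.54 CPM per kb, where the means of the 9 ran from 8.072 to 4213 CPM per kb. Both knockout libraries were above the controls in 6 of the 10 (17.7% of all tested genes, 21.7% of those of at least 20 CPM). The median log2 fold change was 0.30. When scaled to endothelial genes, 5 of the 10 were below 0, as were 12351 of all 15909 tested genes. Among the membrane proteins, Igsf5, which encodes the junction molecule JAM4, was read at 29.48 and 27.68 CPM in Pd1fl/fl and 44.57 and 55.37 CPM in Pd1cKO-Tie2 libraries. This was the largest fitted change of the 10, a log2 fold change of 0.81 and a standard error of 0.27 (edgeR adjusted p = 0.7382). Against the endothelial genes it was 0.44 (95% interval -0.23 to 1.11). Ildr2, which encodes the Lsr relative angulin-3, had a log2 fold change of 0.41 with a standard error of 0.17 (edgeR adjusted p = 0.7979), and 0.06 against the endothelial genes.

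Afdn encodes afadin, the adaptor between nectins and actin, and was read at 115.0 and 151.7 CPM in Pd1fl/fl and 209.3 and 200.5 CPM in Pd1cKO-Tie2 libraries. Its log2 fold change was 0.62 with a standard error of 0.20 (edgeR adjusted p = 0.7348). The angiomotin genes Amotl1 and Amotl2 had log2 fold changes of 0.56 ± 0.39 and 0.36 ± 0.23 (SE), and Arhgef2, which encodes the junctional exchange factor GEF-H1, 0.23 ± 0.14. Ybx3 differed by 0.06 ± 0.29, Magi1 by -0.06 ± 0.22 and Pard6g by -0.11 ± 0.35. Against the endothelial genes Afdn was at 0.25 (95% interval -0.32 to 0.82), Amotl1 at 0.22, Amotl2 at 0.01 and Arhgef2 at -0.13. None of these genes was called, and only Igsf5 and Afdn had intervals that left out 0 under TMM scaling.

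**Figure D4:**
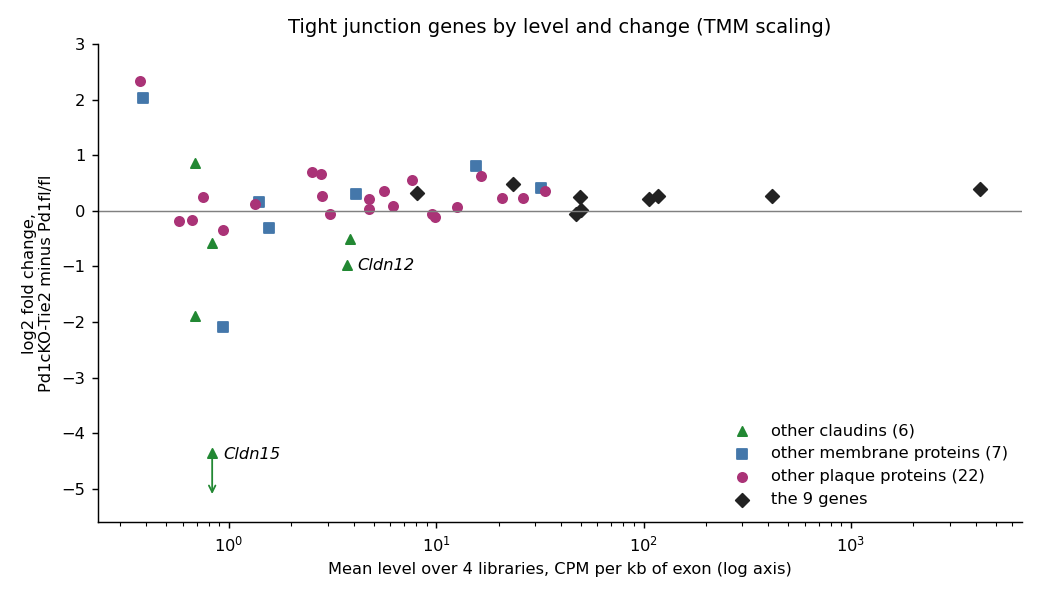
Fitted log2 fold change (Pd1cKO-Tie2 minus Pd1fl/fl, TMM scaling) against the mean level in CPM per kb (log axis) for the 9 genes (black diamonds) and 35 other junction genes. The 9 genes and the abundant others lie near 0, the spread grows at low levels, and Cldn15 is drawn at its bound of -4.36 with an arrow since both knockout libraries were at 0.

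Transcription factors and cofactors that act on junction genes or on the barrier were given as a list of 15, and all 15 were tested. None was called (4.02% of all tested genes were), both knockout libraries were above the controls in 8 (17.7% of all) and below them in 3 (18.1% of all), and the median log2 fold change was 0.18. ERG, an ETS factor that activates Cldn5, had the highest fitted value (Erg 0.67 ± 0.33, SE), and it also belongs to the endothelial reference. Foxo1, whose product represses Cldn5, stood at 0.54 ± 0.38 and Ctnnb1, which encodes β-catenin, at 0.26 ± 0.23.

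Fitted values of the SOX factors were 0.39 ± 0.15 (Sox17) and 0.33 ± 0.15 (Sox18), those of the other ETS factors 0.17 ± 0.11 (Ets1) and -0.10 ± 0.22 (Fli1), and Lef1, a Wnt effector, was at 0.18 ± 0.19. The brain endothelial factors Foxf2 and Foxq1 were at 0.39 ± 0.18 and 0.27 ± 0.35. Sox17 had the only interval in this list that left out 0 under TMM scaling. Below the controls in both knockout libraries were Klf2 (-0.28 ± 0.22) and Klf4 (-0.35 ± 0.21), which respond to flow, and Snai1 (-1.10 ± 1.35), a claudin repressor that was scarce at 0.7115 to 2.15 CPM. Snai2 was at -0.12 ± 0.45. Scaled to the endothelial genes, 11 of the 15 were below 0, as were 12351 of all 15909 tested genes. Sox17 was then at 0.03 (95% interval -0.30 to 0.36). The intervals that left out 0 were those of Klf4 (-0.71, from -1.24 to -0.18) and Klf2 (-0.65, from -1.26 to -0.04). Both intervals included -0.363, the median of all tested genes under this scaling. The edgeR adjusted p was 0.4079 for Klf4 and 0.4318 for Klf2.

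Profiles over the 4 libraries were compared as the root mean square difference of centred log2 CPM. Among the 9 genes the closest pair was Ocln and Lsr, at 0.013, followed by F11r and Esam at 0.065 and Cldn5 and Esam at 0.071, and the most distant was Tjp1 and Cgnl1 at 0.46. Among 9456 other genes of at least 10 CPM, the closest to Cldn5 were Cd40 (0.011), Map1lc3b (0.012) and Ramp2 (0.016), where the median gene stood 0.33 away. Ocln was closest to Sucla2 (0.011), Sparcl1 (0.013) and Lsr (0.013), with a median of 0.30. Tjp1 was closest to Dicer1 (0.026), Cd1d1 (0.031) and Pbxip1 (0.032), with a median of 0.36. These distances describe 4 libraries and carry no test.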

How the data were processed

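The authors deposited 4 tables, each setting 1 Pd1cKO-Tie2 beside 1 Pd1fl/fl library, with whole-number read counts per gene as the authors counted them; their CPM, fold change and p-value columns were not used. The submitters' processing notes name Bowtie2 2.2.3, TopHat2 2.0.12, HTSeq 0.6.0 and the build mm9, but 90% of gene positions in the tables equal those of GENCODE M21 (GRCm38), and positions are given as in the tables. The 4 tables were joined to 21578 genes, a gene not listed for a library being set to 0 (at most 4 counts), and 10 broken lines were skipped. The second Pd1cKO-Tie2 column bears a number found in no label, so that library is known by genotype alone. Total counts were 14358748 and 13714374 in the controls against 24146115 and 14155871 in the knockout libraries, where 3 counts, the limit that a count of 0 allows, equal 0.124 to 0.219 CPM. Bounds cover counting error only.

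Genotypes were compared with edgeR 4.0.16 in R 4.3.3 (quasi-likelihood F test), using filterByExpr (15909 genes), TMM scaling and genotype as the only term. The common biological coefficient of variation was 0.610. P-values were adjusted by the Benjamini-Hochberg method across the tested genes, and standard errors follow from the fold change and F. Profiles used log2 CPM with a prior count of 2. Alternatives were DESeq2 1.42.0, limma-voom (limma 3.58.1), other filters and scalings, and leaving out each library. Scripts were tested on simulated counts. Exon lengths, overlaps and shared stretches of 50 bases came from GENCODE M21 (Python 3.11.15), and promoter windows from RefSeq.

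The 9 genes, the gene lists and the rules were chosen with earlier results of these data known. Named beyond the 9 were called genes and the 10 of highest mean CPM per kb among other junction genes, all tested factors of the regulator list, and the 3 genes of most similar profile for Cldn5, Ocln and Tjp1. Among these, 1 junction gene and 1 regulator are counted but not reported here.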

Additional observations from a re-analysis of the deposited data

How the results depend on the processing

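None of the 9 genes was called under any of the 11 alternatives, and 0 had an adjusted p under 0.05 with edgeR, DESeq2 or limma-voom. Unadjusted p was under 0.05 for 1 of the 9 by the main edgeR test, for 2 by DESeq2 and limma-voom, and for 3 without Pd1fl/fl replicate 1. The adjusted p of Cldn5 ranged from 0.1169 (DESeq2) to 0.9284 (edgeR without Pd1cKO-Tie2 replicate 2). Scaling to the 12 endothelial genes reversed the log2 fold changes of Ocln (-0.0903), Tjp1 (-0.371), F11r (-0.149), Esam (-0.0815), Marveld2 (-0.0344) and Lsr (-0.116), and Cldn5, Cgnl1 and Jam2 kept their sign. Tjp1 was also reversed by limma-voom (-0.0580), by library size scaling (-0.0628) and without Pd1fl/fl replicate 1 (-0.15) or Pd1cKO-Tie2 replicate 2 (-0.31). Without Pd1cKO-Tie2 replicate 1, Jam2 was reversed (0.0321, the highest of its values with 1 library left out, the lowest being -0.1424) and Tjp1 was at 0.28. The cause was not tested.

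The number of the 9 genes whose genotypes did not overlap was 7. It was 8 under library size scaling, which added Jam2 with both knockout libraries below the controls. It was 4 when scaled to endothelial genes, and 7 to 9 when 1 library was left out. Leaving out a library was a choice made after the data were seen, and 66.4% to 68.0% of all tested genes then do not overlap. The number of other junction genes called was 1 (Cldn15), 2 under limma-voom, library size scaling and scaling to endothelial genes (each adding Cldn12), 0 with at least 10 counts in every library, which removes Cldn15, and 1 to 3 when 1 library was left out (2 without Pd1fl/fl replicate 1, adding Amotl1, 3 without Pd1fl/fl replicate 2, adding Crb2 and Cgn, and 3 without Pd1cKO-Tie2 replicate 2, adding Cldn1 and Cldn12). Over all genes 640 were called (224 up, 416 down), and 992 (137 up, 855 down) when scaled to endothelial genes. DESeq2 gave 114 genes an adjusted p under 0.05 where edgeR gave 0. No paired analysis was possible because the labels share only the number 1 between the genotypes and 1 knockout library is known by genotype alone. Counts behind the 9 genes ran from 296 (Marveld2) to 156788 (Cldn5) per library, and Marveld2, with the fewest, had the widest interval.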
